A study of Sus scrofa with 9 samples.

Results

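The mitochondrial ribosomal proteins were examined as the genes whose symbol starts with MRPL (named as large subunit proteins) or MRPS (named as small subunit proteins) followed by a digit. Of the 6765 genes named by a single symbol on the Affymetrix Porcine Genome Array, 58 met this rule, 36 of them MRPL genes and 22 of them MRPS genes. They were represented by 77 probe sets, and the probe set with the highest mean log2 signal over the 9 arrays stood for each gene. A further 2 symbols, MRPL22 and MRPL55, occurred only among the 6 probe sets that list an MRPL or MRPS symbol together with other entries, and they were not counted. RNA came from the germs of the additional molars of Wuzhishan miniature pigs, the permanent molars that form behind the milk teeth, taken from the mandible with the dental lamina attached. At embryonic day 50 (E50) the first of these molars was at the cap stage, at E60 it was at the bell stage and the next molar had started to form, and at E70 it was at the late bell stage. Each stage had 3 arrays, its RNA came from pools of germs that shared a stage and a litter, and the labels name no treatment in any group. The sources used here do not say whether the arrays of a stage stand for separate litters, and the p-values therefore cover no more than the spread among the arrays, which may be technical.

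Mitochondria translate the few proteins encoded by their own DNA on a ribosome of their own. Its ribosomal RNAs are transcribed inside the organelle, whereas its proteins are encoded in the nucleus, made in the cytosol and imported. Some of these proteins descend from bacterial ribosomal proteins and carry their numbers, others are found on mitochondrial ribosomes alone, and the products of this ribosome are core subunits of the respiratory chain and of ATP synthase. No probe set of a gene encoded by mitochondrial DNA was measured under the symbols searched, so 0 of those genes enter the comparisons.

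The stages differed in array controls and in other cell markers, and these values stand beside every comparison with E50. The EF1A 3' to 5' signal ratio, a measure of how far the labelled RNA reaches from its 3' end, averaged 52.0, 1.48 and 1.40 (geometric means for E50, E60 and E70), and the GAPDH ratio averaged 35.5, 8.19 and 5.28. The hybridisation spike-ins averaged 63310 in the cap stage arrays, 4227 in the bell stage arrays and 3571 in the late bell stage arrays. The background, the 95th percentile of 23 control probe sets on each array, ran from 77.7 to 378.6 at E50 and from 37.9 to 55.8 on the later arrays. The summed signal of the 23 measured skeletal muscle genes ran from 13900 to 16020 at E50, then from 5316 to 5802 at E60 and from 3114 to 3261 at E70, with MYH2 and TNNT2 below background on every array. Of the 8 measured genes of tooth mesenchyme, 6 were above background on all arrays of each stage, with summed signals between 119800 and 132000 on the E50 arrays, 79560 and 82530 on the E60 arrays and 54470 and 93830 on the E70 arrays. Of the 7 measured genes of tooth epithelium, 3 were above background on all arrays at E50 and at E60 and 5 at E70, and the list summed to between 5658 and 6448, between 6529 and 7381 and between 11500 and 12650 in order of stage. The 5 measured red cell genes summed to between 1434 and 2728 at E50, between 2699 and 3152 at E60 and between 2643 and 4171 at E70. E50 and the control values cannot be told apart, and the part of the muscle and other cell markers in the results was not tested.

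The transcripts of the mitochondrial ribosomal proteins were well measured in the molar germ. On every E60 and E70 array all 58 genes were above background, and 48 of the 58 were above background on all 9 arrays. On the 3 E50 arrays 54, 57 and 50 of the genes were above it. The median signal of the 58 genes averaged 947 on the E50 arrays, 687 on the E60 arrays and 722 on the E70 arrays (geometric means). The genes varied more among the E50 arrays than later, with a median standard deviation on the log2 scale of 0.35, 0.13 and 0.23 in order of stage (n = 3 each), against 0.51, 0.18 and 0.25 for all genes.

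Between the cap and the bell stage 14 of the 58 genes fell, none rose and 44 were not called. A call here is an adjusted p under 0.05 in limma, with Benjamini-Hochberg adjustment over all 23999 probe sets tested. At an unadjusted p under 0.05, 25 members were lower and 1 was higher, against 23.2% and 13.3% of all genes. The 14 falls were 24.1% of the members, while lower calls covered 13.7% of all genes by their brightest probe set and 10.6% of all probe sets, and higher calls covered 7.2% of genes. The median log2 change of the members, E60 minus E50, was -0.51 and that of all genes was -0.18. Fitted on the E50 and E60 arrays alone, limma called 9 of these 14 genes lower and no other member, against 6.65% of all genes. In 32 members every E60 array lay below every E50 array, which was the case for 27.5% of all genes, and in 2 members every E60 array lay above, against 18.2% of all genes. These are bulk samples, so fewer cells of a type and less RNA per cell cannot be told apart.

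The count depended on scaling. With each array centred on its median, 4 members were lower at E60 and 4 were higher, where 3.92% of all genes were lower and 21.3% higher. Centring moved the median change of all genes to 0.59 and that of the members to 0.26. Such centring shifts all genes of an array alike, so the members' median minus that of all genes, -0.33, is the same by construction. The 4 genes lower under both were MRPL17, MRPL30, MRPL33 and MRPS21, and these were also the genes called in all 19 alternative settings. A dimmer probe set of MRPL33, given below, was not called. Without E60 replicate 1, 2 or 3 the count was 6, 9 or 8.

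**Figure D1:**
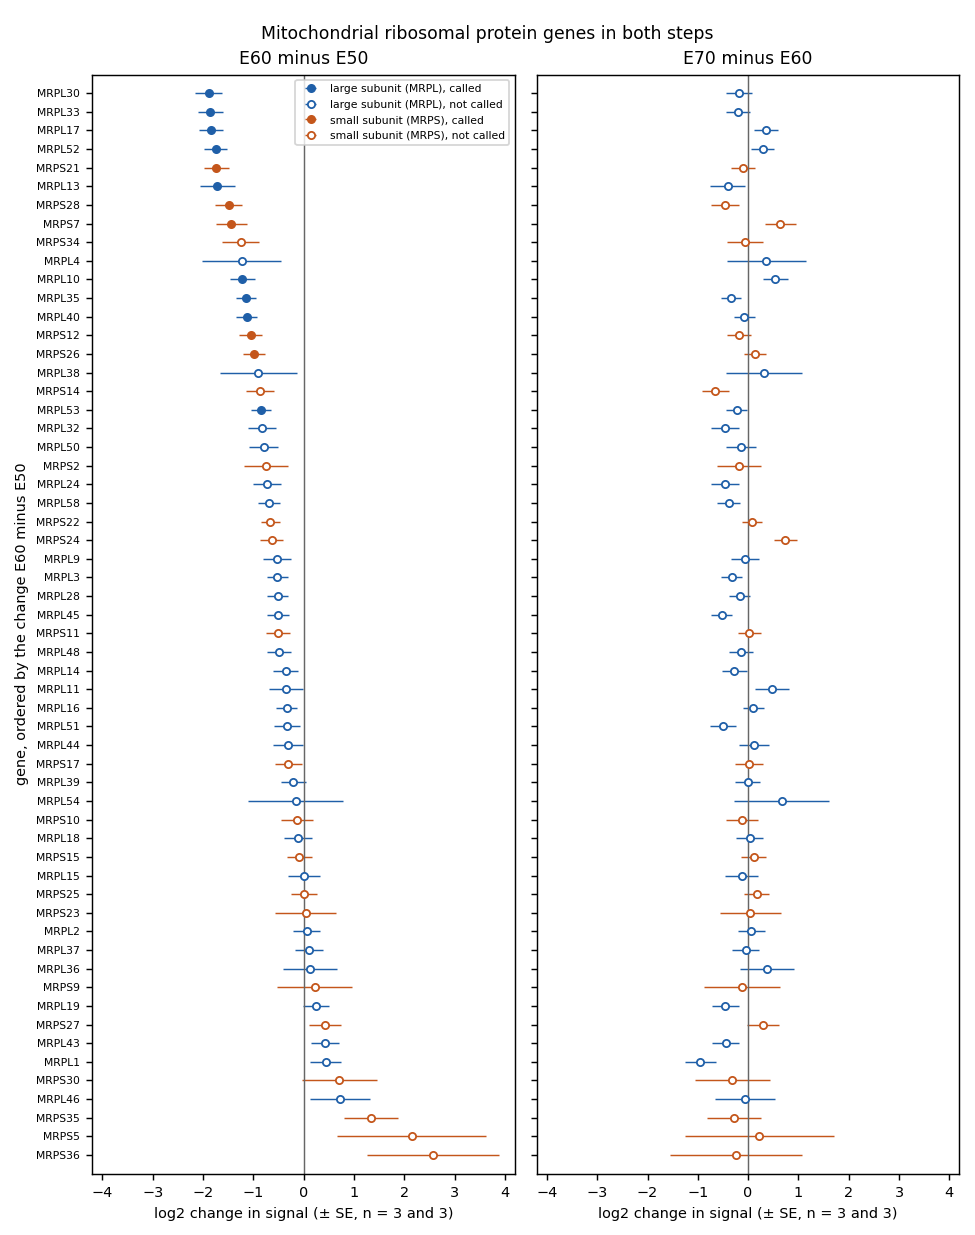
Log2 change of each of the 58 mitochondrial ribosomal protein genes (rows) from E50 to E60 (left) and from E60 to E70 (right), with the standard error of the 9-array fit as bars. Blue marks MRPL and orange MRPS genes, and filled points were called by limma. The 14 filled points all lie left of 0 in the first step, and no point is filled in the second.

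Among the large subunit proteins that have a bacterial counterpart, MRPL30, MRPL33 and MRPL17 showed the largest falls at E60. MRPL30 had signals of 6397, 6747 and 5458 on the E50 arrays, 1956, 1575 and 1504 on the E60 arrays and 1572, 1118 and 1807 on the E70 arrays. Its level was thus 3.70-fold higher at E50 than at E60 (log2 change -1.89, SE 0.26, limma adjusted p = 0.00501), and the E50 arrays overlapped with none of the later arrays. MRPL33 read 3724, 4308 and 3036 at E50, 1014, 926 and 1102 at E60 and 741, 1008 and 905 at E70. All E50 values of MRPL33 were above all later values, with a log2 change of -1.85 at E60 (SE 0.24, limma adjusted p = 0.00393). MRPL17, whose bacterial counterpart lies near the exit of the peptide tunnel, read 5216, 4479 and 4928 at E50, then 1255, 1588 and 1267 at E60 and 2059, 1809 and 1428 at E70. It fell by 1.84 on the log2 scale at E60 (SE 0.24, limma adjusted p = 0.00385), and its E60 and E70 arrays overlapped.

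The other large subunit proteins of bacterial descent that fell were MRPL13, MRPL10 and MRPL35. MRPL13 read 5489, 5537 and 4203 at E50, 1675, 1655 and 1301 at E60 and 1720.0, 734 and 1238 at E70. The E70 arrays of MRPL13 were spread more widely than its E60 arrays and spanned all of them, and the log2 change at E60 was -1.72 (SE 0.35, limma adjusted p = 0.016). MRPL35 read 2799, 2816 and 3274 at E50, 1348, 1365 and 1273 at E60 and 999, 1149.6 and 1019 at E70. Its 3 stages formed a descending series without overlap, with a log2 change of -1.15 at E60 (SE 0.20, limma adjusted p = 0.00988). MRPL10, which anchors the stalk that recruits translation factors, read 1371, 1269 and 1745 at E50, 677, 567 and 631 at E60 and 1080.0, 775 and 897 at E70. It fell by 1.22 at E60 (SE 0.24, limma adjusted p = 0.0149), and its E70 arrays lay between those of the earlier stages without overlap.

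The large subunit proteins of the mitochondrial ribosome alone gave 3 falls, those of MRPL52, MRPL40 and MRPL53. MRPL52 and MRPL40 belong to the central protuberance, the crest of the large subunit. MRPL52 read 5879, 5974 and 4326 at E50, 1572, 1490.2 and 1704 at E60 and 2187, 1757 and 1887 at E70. It fell by 1.75 on the log2 scale (SE 0.23, limma adjusted p = 0.00408), and its E70 arrays lay above its E60 arrays and below its E50 arrays. MRPL40 was even within each stage, at 1899.8, 1952 and 1893 on the E50 arrays, 805, 929.8 and 900.1 on the E60 arrays and 965, 724 and 823 on the E70 arrays. The log2 change of MRPL40 at E60 was -1.13 (SE 0.21, limma adjusted p = 0.0124). MRPL53, which lies near the base of the stalk, had the smallest called change, with -0.85 (SE 0.20, limma adjusted p = 0.029). It is named here, as is MRPS26, because it completes the 14 calls, after its value was seen.

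Of the 22 MRPS genes 5 fell at E60, MRPS21, MRPS28, MRPS7, MRPS12 and MRPS26. MRPS21, the counterpart of a bacterial protein of the same number, read 8439.8, 9177 and 9893 at E50, 3098, 2598 and 2591 at E60 and 3109.9, 2029 and 2674 at E70. The E50 arrays of MRPS21 were 3.32-fold above the E60 arrays (log2 change -1.73, SE 0.24, limma adjusted p = 0.00501), and the later stages overlapped. MRPS28 read 1536, 1849 and 1052 at E50, 506, 511 and 520.4 at E60 and 429, 383 and 315 at E70. Its stages descended without overlap, with a log2 change of -1.49 at E60 (SE 0.27, limma adjusted p = 0.0116). MRPS7, a protein of the head of the small subunit, read 598, 313 and 410.2 at E50, 175, 175 and 126 at E60 and 282, 207 and 249 at E70. The E70 arrays of MRPS7 were between the other stages without overlap, and the log2 change at E60 was -1.44 (SE 0.31, limma adjusted p = 0.0199). MRPS12, which belongs to the decoding centre, read 661, 908 and 709.7 at E50, 330.4, 437 and 328 at E60 and 308, 330.3 and 318 at E70. It fell by 1.06 at E60 (SE 0.23, limma adjusted p = 0.022), and its later stages overlapped. MRPS26, found on mitochondrial ribosomes alone, had a log2 change of -0.995 (SE 0.22, limma adjusted p = 0.0216). MRPL10, MRPL53, MRPS7, MRPS12 and MRPS26 were the called genes not called in the fit of the E50 and E60 arrays alone.

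**Figure D2:**
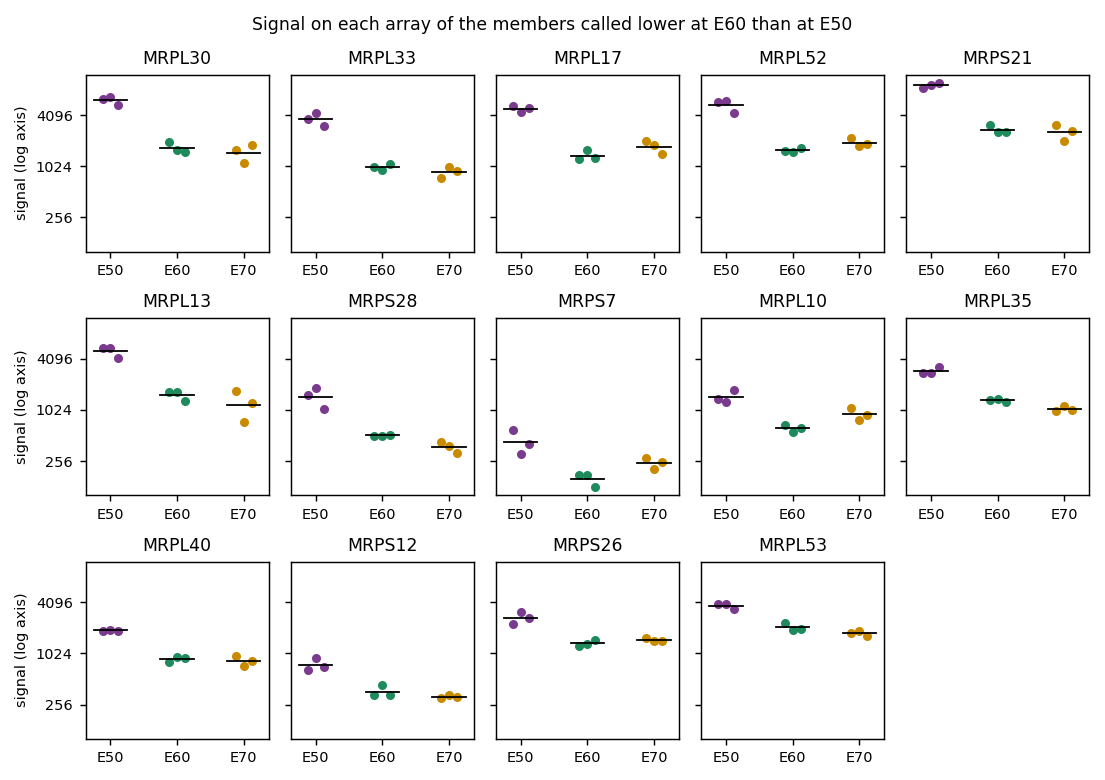
Signal on each array, on a log axis, of the 14 mitochondrial ribosomal protein genes that fell from E50 to E60, with 1 panel per gene. Points are the 3 arrays of a stage and the line is their geometric mean. In every panel the 3 E50 points lie above the 6 later points, as for MRPL30, where the lowest E50 value is 5458 and the highest later value is 1956.

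The falls were found among MRPL and MRPS genes and in both kinds of protein, where 13.7% of all genes were called lower. Of the 36 MRPL genes 9 fell at E60, with a median change of -0.52, and of the 22 MRPS genes 5 fell, with a median of -0.41. Of the 34 genes whose proteins have a bacterial counterpart 10 fell (median -0.53). Of the 23 genes for proteins of the mitochondrial ribosome alone 4 fell (median -0.33), and this 17.4% was near the general share. Fitted on the E50 and E60 arrays alone, 7 MRPL and 2 MRPS genes were called lower, against 6.65% of all genes. By kind of protein, that fit called 7 with a bacterial counterpart and 2 of the mitochondrial ribosome alone. Both counts of 2 were near the share of all genes. Whether these pairs of groups differ was not tested. MRPS36, whose protein is now counted as a subunit of the 2-oxoglutarate dehydrogenase complex rather than of the ribosome, was placed in neither kind of protein but is among the 22 MRPS genes by its symbol. Without it 5 of 21 MRPS genes fell, with a median of -0.51.

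The falls were also uneven over signal level. Among the 7 members with a mean log2 signal of 11 or more 6 fell at E60, and their median change was -1.73, while all 879 genes of this signal had a median of -0.02 and 22.2% of them were called lower. Among the 14 members from 10 to 11 the median was -0.53 and 4 fell, against a median of 0.14 and 9.22% called lower for all genes there. The 18 members from 9 to 10 had a median of -0.42 against -0.12, and their 2 falls were close to the 12.5% of all genes there. Below 9, where 19 members lay, the median was 0.04 against -0.47 for all genes, and 2 fell, where 13.3% of all genes did. The 10 members that were not above background on all 9 arrays all lay outside the calls, with a median of 0.46. They missed background on E50 arrays only, so low E50 readings both picked them and moved their change upward. MRPL3 was the member over 11 that was not called at E60, with a log2 change of -0.52 (SE 0.20, limma adjusted p = 0.115).

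**Figure D3:**
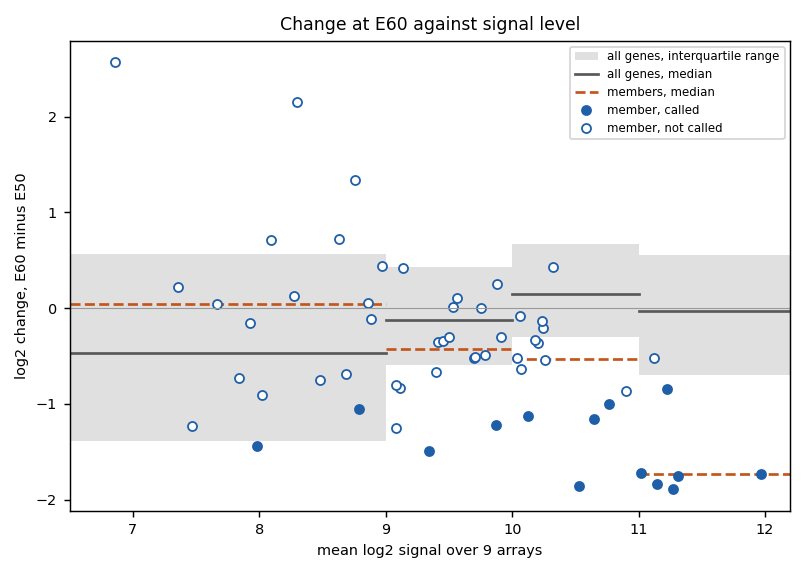
Log2 change from E50 to E60 of each of the 58 genes (points, filled when called) against its mean log2 signal over the 9 arrays. Grey bands give the interquartile range and grey lines the median of all genes at that signal, and dashed lines give the members' medians, which run from 0.04 below a signal of 9 to -1.73 above 11. The mean signal includes the E50 arrays, which also enter the change.

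Not all members shared the lower level after E50. In 16 of the 58 genes the fitted change at E60 was above 0, but none of these passed the test. MRPL43, a large subunit protein, had 1042, 1252 and 1215 at E50 and 1618, 1346 and 1764 at E60, without overlap, and a log2 change of 0.43 (SE 0.27, limma adjusted p = 0.304). MRPS35 had 327, 472 and 100.3 at E50 and 628, 655 and 608 at E60, also without overlap, with 1.34 (SE 0.53, limma adjusted p = 0.123). The largest positive estimates were those of MRPS36 and MRPS5, and each turned on the spread of the E50 arrays. MRPS36 read 13.7, 9.11 and 426 at E50 and 187 to 294 at E60, so that 1 E50 array lay above and the others far below all later arrays. MRPS5, a small subunit protein of bacterial descent, read 544, 355 and 7.04 at E50 and 440.2 to 527 at E60.

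Single low readings of this kind were found mostly at E50. On E50 replicate 3, MRPL4, MRPL46, MRPL54, MRPS5, MRPS30 and MRPS35 were more than 2-fold below both other E50 arrays, and all 6 were below the background of 378.6 on that array. The largest of these gaps after that of MRPS5 was for MRPL54, at 39.4 on replicate 3 and 487 and 579 on the others. On replicate 1, MRPL36, MRPS9 and MRPS23 were below both others and below the background of 247.7, and on replicate 2 this held for MRPL38 only, at 129, above the background of 77.7. Among the 6 later arrays 1 such reading was found, for MRPL4 on E60 replicate 1, with 67.2 against a background of 37.9. These genes were chosen after their values were seen. Without E50 replicate 3, limma called 20 members lower and 2 higher at E60, the higher ones being MRPS27 and MRPS36.

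Probe sets of the same gene did not always move together. In 14 members there were 19 other, dimmer probe sets, of which 10 had the sign of the brightest one at E60 and 9 the opposite sign. None of the 19 was called lower and 2 were called higher, for MRPL52 and MRPS9. Among all 23999 probe sets tested 2552 were called lower and 1884 higher at E60, so the higher count was near the general share. The other MRPL33 probe set was above background on all 9 arrays and was not called. It read 578, 606 and 406 at E50 and 775, 618 and 610 at E60. Its log2 change was 0.35 at E60 (limma adjusted p = 0.437) and 0.09 between E50 and E70, whereas the brightest MRPL33 probe set fell. A dimmer MRPL52 probe set had a log2 change of -0.95 at E60 and was not called (limma adjusted p = 0.574). The MRPL52 probe set called higher read 26.6, 53.9 and 36.3 at E50, where no array was above its background. It read 199.8, 197 and 128 at E60 (limma adjusted p = 0.0116) and 309, 146 and 176 at E70. Set against the E50 background this gives no fold above 1 at E60 and at least 1.03-fold at E70, so for MRPL52 the brightest probe set fell and a dim one was called higher. The other MRPS9 probe set was below background on all E50 arrays and read 393, 352 and 368 at E60, at least 1.91-fold above the E50 background (limma adjusted p = 0.00347), and it was at least 2.10-fold above it at E70. The brightest MRPS9 probe set read 38.8, 269 and 338 at E50 and 169, 172 and 191 at E60, where the E50 arrays lay on both sides of the E60 arrays. The bound takes the geometric mean of the bright stage over that of the dim stage, with each dim array raised to its background where it was lower.

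Between the bell and the late bell stage 0 of the 58 genes passed the test in limma, both in the fit of 9 arrays and when E60 and E70 were fitted without E50. Calls were few in general, at 0.724% of all genes in either direction. The median change of the members, E70 minus E60, was -0.09 and that of all genes was 0.05. At an unadjusted p under 0.05 there were 3 lower genes, MRPL1, MRPL45 and MRPS14, and 1 higher gene, MRPS24, where 5.22% of all genes were lower and 4.46% higher, so the count of lower members was near the general share. In 12 members every E70 array lay below every E60 array, where 15.7% of all genes did so, and in 8 members every E70 array lay above, against 18.4% of all genes.

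The widest separations in this step ran in opposite directions, and the genes giving them were chosen after their values were seen. MRPL1, a large subunit protein of bacterial descent, read 347, 539 and 705 at E50, 783, 569.6 and 735 at E60 and 381, 337 and 355 at E70. Every E70 array of MRPL1 was below every E60 array, with a log2 difference of -0.95 (SE 0.31, limma adjusted p = 0.421). MRPS24, a small subunit protein with a bacterial counterpart of another number, read 1480.1, 1182 and 1023 at E50, 794, 794 and 756 at E60 and 1188, 1472 and 1259 at E70. Its E60 arrays were below all others, with a log2 difference of 0.74 in the second step (SE 0.23, limma adjusted p = 0.393). With array weights estimated per stage, MRPL1 was called lower and MRPS24 higher at E70.

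The difference between the steps was tested for every member. It passed for 1 gene, MRPL17, which fell in the first step and had a positive estimate in the second, with a difference of 2.20 on the log2 scale (SE 0.41, limma adjusted p = 0.0474), while 2.42% of all genes passed. The call ended, with 0 members passing, after quantile normalization, with a replicate block and without any of the E60 or E70 arrays, and other settings gave up to 9 members. At an unadjusted p under 0.05 the steps differed in 12 members, against 21.8% of all genes. For MRPL52 the difference was 2.04 (limma adjusted p = 0.0517).

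Over both steps 19 of the 58 genes fell, none rose and 39 were not called. This comparison shares its E50 arrays with that of E60 minus E50. The 19 falls were 32.8% of the members, while lower calls covered 14.3% of all genes and 10.6% of all probe sets, higher calls covered 7.33% of genes, and at an unadjusted p under 0.05 27 members were lower and 0 higher, against 23.3% and 15% of all genes. The median change of the members was -0.60 and that of all genes was -0.11. Fitted on the E50 and E70 arrays alone, 8 of the 19 were called, against 5.99% of all genes. With each array centred on its median 6 members were lower and 2 higher at E70, where 5.65% of all genes were lower and 21.9% higher. The count was 12 without E70 replicate 2 and 12 without E70 replicate 3.

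The genes lower at E70 were mostly those lower at E60. In 12 members both comparisons with E50 gave a fall, and in 21 at least 1 of them did. Of all genes, 13.7% were called lower at E60 and 14.3% at E70. Both comparisons use the E50 arrays, and the overlap over all genes is not given here. MRPL10 and MRPS7 were lower at E60 but were not called at E70, with log2 changes of -0.67 (limma adjusted p = 0.0931) and -0.80 (limma adjusted p = 0.113) between E50 and E70. Among the called members the largest falls at E70 were those of MRPL13 with -2.12 (SE 0.35, limma adjusted p = 0.00718), MRPL30 with -2.07 and MRPL33 with -2.06. MRPS28 with -1.95, MRPS21 with -1.83 and MRPS14 with -1.52 came next. MRPL30, MRPL33, MRPL35, MRPS21 and MRPS28 were called lower at E70 in all 19 alternative settings.

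A group of 7 genes was called at E70 but not at E60. MRPS14, a small subunit protein of bacterial descent, read 4412, 3237 and 2542 at E50, 1711, 1806 and 1934 at E60 and 971, 1274 and 1255 at E70. Its stages descended without overlap, and the change from E50 to E70 had an SE of 0.27 and a limma adjusted p = 0.00957. The remaining 6, named after their values were seen, were MRPL3, MRPL24, MRPL32, MRPL45, MRPL58 and MRPS34. MRPL45, which ties the ribosome to the inner membrane at the tunnel exit, read 1251, 1720.2 and 1597 at E50, 1066, 1108 and 997 at E60 and 766, 718 and 713 at E70. It fell by 1.04 between E50 and E70 (SE 0.21, limma adjusted p = 0.0162), in a descending series without overlap. MRPL58, a peptidyl-tRNA hydrolase built into the large subunit, read 734, 571 and 566 at E50, 443, 379 and 341 at E60 and 317, 284 and 283 at E70. Its stages also descended without overlap, with a change of -1.07 (SE 0.22, limma adjusted p = 0.0171). MRPL3, MRPL24 and MRPL32 fell by 0.85, 1.18 and 1.28. A dimmer MRPL3 probe set read 378, 309 and 13.9 at E50 and 915, 1244.5 and 745 at E70. Its log2 change was 3.01, opposite to the fall, and was not called (limma adjusted p = 0.111). A further MRPL3 probe set had 0.52 and the dimmer MRPL32 probe set had -0.66, and neither was called. MRPS34 had a change of -1.32 (SE 0.36, limma adjusted p = 0.0437) with 821, 735 and 1568 at E50. MRPS34 was called in 7 of the 19 alternative settings, and the call was lost without E50 replicate 3 and without any of the 6 later arrays.

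Over the 3 stages together 18 members passed the F-test of limma, against 20.6% of all genes. In 27 members every E50 array lay above all 6 later arrays, which was the case for 20.8% of all genes. Some of these members did not pass the F-test, such as MRPS22, which read 979.9, 814 and 913 at E50 and 548 to 606 later. MRPS22 had a log2 change of -0.66 at E60 (SE 0.19, limma adjusted p = 0.0531).

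The proteins that share the mitochondrial ribosome under other names gave 1 call in 4 measured genes at E60, where 13.7% of all genes were called lower. GADD45GIP1, a large subunit protein, read 1014, 948 and 857 at E50, 195, 204 and 174 at E60 and 327, 275 and 199 at E70, and fell by 2.30 on the log2 scale (SE 0.25, limma adjusted p = 0.00235). Its E50 arrays lay far above all later arrays. CHCHD1 had a log2 change of -0.69 (limma adjusted p = 0.0534), while those of DAP3, which binds GTP in the small subunit, and of PTCD3 were 0.13 and -0.20. Among 18 measured assembly factors of this ribosome 5 fell and none rose, with a median of -0.47. The fit of the E50 and E60 arrays alone called 2 of these 5, YBEY and MALSU1, and it called GADD45GIP1, against 6.65% of all genes. YBEY, an RNA endonuclease, fell by 1.41 and RPUSD4, a pseudouridine synthase, fell by 1.40, while MPV17L2 and MALSU1 fell by 1.17 and 1.14.

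The machinery that works with the ribosome was mixed. At E60 lower calls covered 13.7% of all genes and higher calls 7.2%. Of 9 mitochondrial translation factors 2 fell at E60, the release factor MTRF1 with -1.42 and the elongation factor TSFM with -0.97, and the median of the list was 0.25. Of 9 genes for tRNA ligases and the amidotransferase of mitochondria 3 fell, with a median of -0.79. GATC, a subunit of that amidotransferase, fell by 1.51 and VARS2 by 1.65. NARS2, also called lower, read 231, 257 and 22.9 at E50, with only 1 E50 array above its own background. It was below background on all E60 arrays, so no fold is given for it. Of 17 genes for mitochondrial transcription and RNA handling 4 rose and 1 fell, with a median of 0.71. The fit of the E50 and E60 arrays alone kept 2 of these 4 rises, TFAM and TRMT10C, and the fall. This fit called 6.65% of all genes lower and 219 of the 6765 genes higher. It kept GATC and VARS2 among the 3 falls of the tRNA ligase list, and 0 of the 2 translation factor falls. TFAM, the factor that packs mitochondrial DNA and starts its transcription, read 721, 858 and 937 at E50 and 2467, 2591 and 2280.3 at E60, and rose by 1.55 (SE 0.22, limma adjusted p = 0.00516). TRMT10C, a subunit of mitochondrial RNase P, was below background on all E50 arrays and at least 1.92-fold above it at E60 (limma adjusted p = 0.00263), and GRSF1, which binds mitochondrial RNA, rose by 0.97. PNPT1, also called higher, read 245, 144 and 53.9 at E50, where 1 of the 3 arrays was above its background, and 535, 455 and 710.1 at E60. None of the 4 measured regulators of mitochondrial biogenesis, MYC, PPARGC1A, PPRC1 and YY1, passed the test at E60, and at an unadjusted p under 0.05 PPRC1 was higher.

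Other nuclear genes of mitochondria and of the cytosolic ribosome are given for comparison, where 13.7% of all genes were called lower and 7.2% higher at E60. Of 32 genes of respiratory complex I 14 fell and 1 rose at E60, with a median of -0.51, and of 7 genes of complex IV 6 fell, with a median of -1.96. COX7C, a subunit of complex IV, fell by 2.90. Of 14 genes of ATP synthase 4 fell, with a median of -0.15, of 4 genes of complex II 1 fell and of 2 genes of complex III 1 fell. Of 23 genes for import and folding 6 fell, with a median of -0.33. The cytosolic ribosomal list goes by symbol and so takes in RPS19BP1, named for binding a ribosomal protein, with a log2 change of -1.26. Of the 64 genes of this list 47 fell, RPS19BP1 among them, and 1 was called higher, with a median of -1.40. The higher one, RPL26, was below background on all E50 arrays, and its E60 signal gave no fold above 1 against that background. Fitted on the E50 and E60 arrays alone, the calls were all lower, where this fit called 6.65% of all genes lower. They were 8 genes of complex I, 0 of complex II, 1 of complex III, 5 of complex IV and 4 of ATP synthase. A further 4 were of import and folding and 38 of the cytosolic ribosomal list. Between E60 and E70 none of the genes of these lists or of the lists of ribosome partners above passed the test in limma, while at an unadjusted p under 0.05 there were 4 lower genes of complex I and at most 1 gene in each other of these lists. The lists were compared by these counts and medians, and the difference between lists was not tested.

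**Figure D4:**
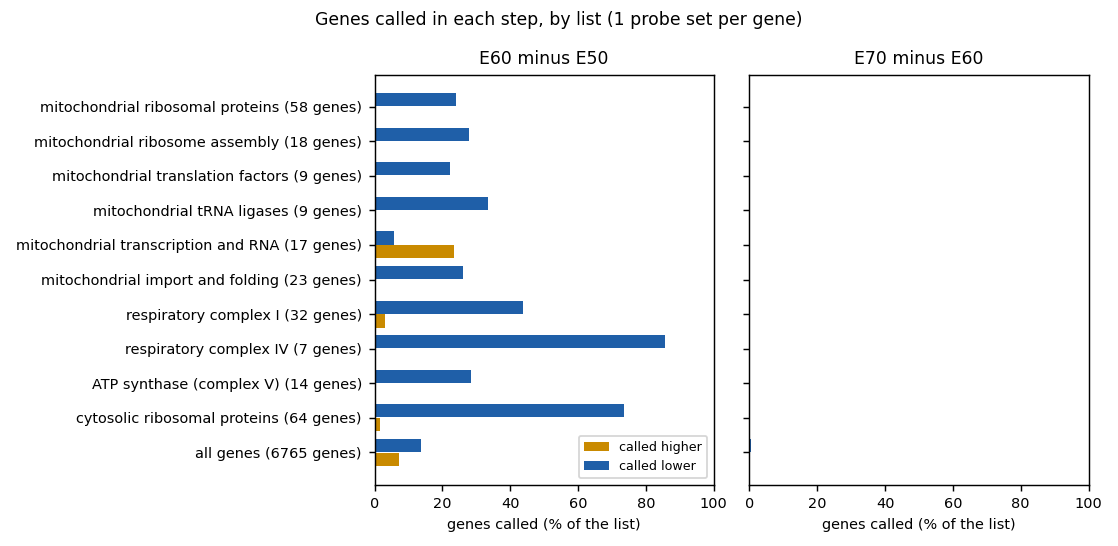
Share of genes called lower (blue) and higher (yellow) in each step, in percent of the genes measured in each list, with 1 probe set per gene. At E60 the 58 mitochondrial ribosomal protein genes had 14 falls and no rise, against 47 falls among 64 genes with cytosolic ribosomal symbols and 13.7% of all genes. Between E60 and E70 no list shown had a call while 0.724% of all genes did.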

How the data were processed

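RNA of additional molar germs was measured on Affymetrix porcine arrays, 3 per stage. The deposited table holds MAS5 signals (version not given in the labels), which are intensity values on a linear scale that the authors made with 1 value per probe set. All 9 columns were matched to samples through the labels, and 0 were left without a sample. Log2 was taken after a floor of 1. Of 24123 probe sets 124 array controls were set aside. Symbols came from the platform annotation, and 57 of the 58 members' Entrez numbers matched the pig's RefSeq genes. No sequence or coordinate was used here.

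A single fit of all 9 arrays (lmFit and eBayes of limma 3.58.1 in R 4.3.3, prior degrees of freedom 1.47) gave the changes and the F-test, with Benjamini-Hochberg adjustment over 23999 probe sets. Each pair of stages was also fitted alone, since the E50 arrays were more variable. Tables and figures were made with Python 3.11.15, pandas 2.3.3, NumPy 2.4.6 and Matplotlib 3.10.9. The fits were tested on simulated data. Alternatives were other scalings (quantile, median centring), a floor of 32, a filter on background, array weights, a trended robust prior, the median of all probe sets of a gene, a replicate block and leaving out each array. The number of arrays and the signal over background limit the precision.

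The members and the gene lists were chosen with earlier results of these data known. Genes were named by rule: up to 12 falls and 12 rises at E60 and up to 6 each at E70 among called members whose arrays did not overlap, every member called between E60 and E70, members with an oppositely called probe set, and up to 4 called genes of each other list. Other named genes were chosen after their values were seen. Proteins were taken as having a bacterial counterpart when numbered up to 36 (MRPL) or 21 (MRPS), to which MRPS24 and MRPS28 were added by hand.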

Additional observations from a re-analysis of the deposited data

Results flagged for a closer look

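MRPL17 was the member whose change differed between the steps, from E50 to E60 and from E60 to E70. The second change minus the first was 2.20 on the log2 scale (SE 0.41, limma adjusted p = 0.0474), with every E60 array below every E50 array and the E60 and E70 arrays overlapping. The call ended after quantile normalization, with a replicate block and without any of the E60 or E70 arrays, where 0 members passed. Both steps use the E60 arrays. Groups of 3 arrays are too small for the test of single outlying arrays, which was not run.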

How the results depend on the processing

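The median change of the members kept its sign in each comparison and setting except under median centring, where it was 0.26 at E60 and 0.11 at E70 against E50, with 0.59 and 0.60 for all genes. Median centring gave 4 members lower and 4 higher at E60, 6 lower and 2 higher at E70 and 6 in the F-test. The fits of 2 stages alone called 9 lower at E60 and 8 at E70, and with quantile normalization of those stages, an alternative chosen after seeing the data, 6 and 9. Array weights per stage gave 7 lower at E60, 7 at E70, 1 lower and 1 higher between E60 and E70, 9 in the F-test and 2 whose steps differed. The number whose steps differed was 0 after quantile normalization, 8 with a floor of 32, 7 with a filter on background and 9 with a trended robust prior. With the median of all probe sets of a gene 3 members were higher at E60 and 1 at E70, the medians were -0.36 and -0.50, 4 had steps that differed, and the sign turned for MRPL52 (0.56) and MRPS12 (0.30) at E60 and for MRPL3 (2.58), MRPL52 (0.78) and MRPS12 (0.49) at E70.

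Leaving out 1 array gave 6 to 20 lower and 0 to 2 higher at E60, 12 to 21 lower and 0 to 2 higher at E70, 9 to 23 in the F-test and 0 to 7 whose steps differed, with no call between E60 and E70. The lowest counts came without E60 replicate 1 (6 at E60) and without E70 replicate 2 or 3 (12 at E70). The cause of these moves was not tested.

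The replicate numbers do not pair the arrays. Deviations from the stage means correlated at -0.02 to 0.03 between arrays of the same number and at -0.04 to 0.03 between others, and 1 of 9 arrays correlated best with its own number. With a replicate block 12 members were lower at E60 and 13 at E70, 8 passed the F-test and 0 had steps that differed. Signal over background limits the 10 members that were not above it on all 9 arrays.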
